A study of Mus musculus with 32 samples.

Results

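Transcripts of the NF-kB transcription factor family, its IkB inhibitors and the ubiquitin-editing enzyme A20 were followed by 10 gene symbols: the subunit genes Nfkb1, Nfkb2, Rel, Rela and Relb, the IkB genes Nfkbia, Nfkbie, Nfkbiz and Bcl3, and Tnfaip3, which encodes A20. A gene was measured where the platform annotation of a chip gave it a probe set with 1 gene symbol, and the probe set of highest mean signal stood for the gene. By this rule 9 of the 10 genes were measured on both chips, of 23339 genes measured on either chip, and Nfkb1 was not analysed here. All 9 passed the filter on low signals in each of the 3 experiments.

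The study profiled mouse tumour-associated macrophages on 32 Affymetrix arrays with 100 ng of RNA each, in 12 groups. In the first experiment cells were enriched with magnetic beads for CD11b, a surface integrin of myeloid cells, from spontaneous peritoneal neuroblastomas of Th-MYCN transgenic mice (3 arrays) or from EG7 tumours, a transplanted thymoma line, in wild-type (WT) mice (3 arrays). In the second, the same enrichment was done from EG7 tumours in Myd88-/- hosts (5 arrays) or WT hosts (5 arrays). Both used the HT_MG-430_PM chip. In the third, EG7 tumours from 4 kinds of host were flow sorted into 2 populations, with 2 arrays per population and genotype on the Mouse Gene 2.0 ST chip. Population A was CD11b+ Ly6G- Ly6C+ MHCII-, and population C was CD11b+ Ly6C- MHCII+. The hosts were TNFR1-/-; Myd88flox/flox; Tie2-Cre (called double mutant here), Myd88flox/flox; Tie2-Cre (Myd88-deleted), TNFR1-/- and WT.

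Some features of these models bound what the comparisons hold. EG7 cells carried none of the host alleles, so tumour cells kept Myd88 and TNFR1 in every group. Myd88-/- and TNFR1-/- hosts lack the gene in all their cells, whereas Tie2-Cre is active in endothelial and blood-forming lineages. Bead enrichment selects on CD11b alone, which neutrophils and monocytes also carry. Whether the arrays of a group represent different mice is not stated in the labels, and the spread behind each p-value may thus be technical. The labels also do not say whether A and C arrays of a genotype come from the same tumours. Tests over both populations treat these arrays as separate. Signals are log2 values, each unit a doubling, and are compared only within one probe set and one experiment.

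NF-kB proteins act as pairs of Rel-family subunits that IkB proteins hold in the cytoplasm. Toll-like and interleukin-1 receptors signal through the adaptor Myd88, and TNF signals through TNFR1 (gene Tnfrsf1a). Both routes activate the IKK kinases, which mark IkB proteins for destruction and free the subunits to enter the nucleus. Several genes of the pathway are themselves NF-kB targets. IkB-alpha (Nfkbia), IkB-epsilon (Nfkbie) and A20 restrain the signal that induced them, while IkB-zeta (Nfkbiz) and Bcl3 are atypical IkB proteins that act in the nucleus, where IkB-zeta helps to switch on secondary response genes. In macrophages these genes are commonly used as a readout of inflammatory receptor signalling.

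Promoter windows were taken from RefSeq on build GRCm38.p6, each running from 250 bases before a transcription start to 50 bases after it. Windows were found for 7 of the 10 genes, and not for Nfkb1, Relb or Nfkbiz. The 10-letter NF-kB consensus motif was searched on both strands, and overlapping matches were merged. It was found in 8 of the 10 windows of these genes and in 8.5% of all 32851 windows. Of the 8, 3 belong to Nfkb2, and 2 of these overlap and share 1 match. At least 1 window held a match for Nfkb2, Rel, Nfkbia, Nfkbie, Bcl3 and Tnfaip3, and none did for Rela. Of the genes with a match, Rel and Nfkbie did not pass the test in the main comparisons of Myd88 loss that follow. The windows below are of 3 genes whose transcripts fell without Myd88 in the comparisons that follow, and of Rela, which passed the test in none of them. They are written 5′ to 3′ on the strand of the gene, with matches to the motif in capitals.
Nfkbia (chr12:55492598-55492897, minus strand): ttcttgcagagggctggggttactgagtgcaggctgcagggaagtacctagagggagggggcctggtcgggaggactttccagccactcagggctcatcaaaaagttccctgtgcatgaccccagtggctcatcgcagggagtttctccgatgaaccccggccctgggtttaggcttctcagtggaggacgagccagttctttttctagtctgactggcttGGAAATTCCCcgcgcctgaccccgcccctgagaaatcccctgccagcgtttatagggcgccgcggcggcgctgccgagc
Tnfaip3 (chr10:19015361-19015660, minus strand): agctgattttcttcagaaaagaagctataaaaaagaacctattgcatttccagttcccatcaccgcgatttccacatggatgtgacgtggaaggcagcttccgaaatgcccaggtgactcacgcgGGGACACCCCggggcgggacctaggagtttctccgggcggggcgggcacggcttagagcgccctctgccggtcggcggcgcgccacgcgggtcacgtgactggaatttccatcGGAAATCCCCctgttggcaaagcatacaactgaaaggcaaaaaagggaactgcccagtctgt
Bcl3 (chr7:19822706-19823005, minus strand): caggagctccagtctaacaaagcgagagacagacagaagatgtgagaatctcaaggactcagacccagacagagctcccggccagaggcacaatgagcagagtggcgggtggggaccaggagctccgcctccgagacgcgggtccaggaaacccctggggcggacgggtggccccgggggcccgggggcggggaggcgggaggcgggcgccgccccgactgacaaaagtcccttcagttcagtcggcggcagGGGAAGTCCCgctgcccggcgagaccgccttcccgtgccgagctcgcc
Rela (chr19:5637291-5637590, plus strand): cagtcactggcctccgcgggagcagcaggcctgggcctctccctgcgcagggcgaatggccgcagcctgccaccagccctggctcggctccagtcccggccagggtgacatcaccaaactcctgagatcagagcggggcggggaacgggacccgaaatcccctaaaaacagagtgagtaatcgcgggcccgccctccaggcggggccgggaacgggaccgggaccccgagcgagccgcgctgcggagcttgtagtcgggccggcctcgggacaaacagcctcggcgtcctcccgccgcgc
In Nfkbia the match lies at bases -29 to -20 from the start. In Tnfaip3 matches lie at bases -125 to -116 and -12 to -3, and the second annotated window of the gene held none. In Bcl3 the match lies at bases 3 to 12, just inside the transcript. A match is a description of letters and does not show that a factor was bound in these cells.

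Without Myd88 in the host, bead-enriched cells of EG7 tumours held less transcript of 5 of the 9 genes, with IkB-zeta furthest down. Nfkbiz signal in Myd88-/- hosts was 30.1% of that in WT hosts, and Bcl3, Nfkb2, Nfkbia and Tnfaip3 fell by smaller steps. All 9 genes had a difference below 0, and their median difference was -0.44 on the log2 scale, against 0.01 over the 11915 genes tested. Of all genes tested, 1.18% were called lower, a call being an adjusted p under 0.05 in limma. The cells were a CD11b+ mixture from hosts lacking Myd88 in all their cells, so this comparison does not isolate a programme of the macrophages.

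As a check of the labels, Myd88 itself had log2 signals of 7.47 to 7.83 in Myd88-/- hosts and 8.11 to 8.57 in WT hosts, a difference of -0.75 ± 0.10 (SE, n = 5 each, adjusted p = 0.00175). The 2 groups did not overlap for Myd88.

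Among the nuclear IkB proteins, Nfkbiz had log2 signals of 9.24, 9.79, 9.52, 9.41 and 9.87 in Myd88-/- hosts, against 11.32, 11.35, 11.38, 11.22 and 11.22 in WT hosts. Every Myd88-/- array lay more than 1 log2 unit under every WT array. The difference was -1.73 ± 0.12 (SE, adjusted p = 6.61e-06). The other 2 probe sets of Nfkbiz on the chip differed by -2.27 and -0.74, again with no overlap of the groups, so the size of the fall depended on the probe set and its direction did not. Bcl3 had log2 signals of 6.82, 6.63, 6.64, 6.69 and 6.75 in Myd88-/- hosts, against 7.72, 7.48, 7.71, 7.01 and 7.03 in WT hosts. The groups did not overlap, but WT arrays 4 and 5 lay well below the other 3. The difference for Bcl3 was -0.68 ± 0.14 (adjusted p = 0.0334).

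Among the classical inhibitors, Nfkbia had log2 signals of 12.69, 12.67, 12.54, 12.74 and 12.69 in Myd88-/- hosts, against 13.06, 13.15, 13.05, 12.97 and 12.99 in WT hosts. Here replicates were tight and the groups were apart, with a difference of -0.38 ± 0.07 (adjusted p = 0.021). Nfkbie had log2 signals of 9.24, 9.67, 9.60, 9.55 and 9.73 in Myd88-/- hosts, against 10.19, 10.16, 10.24, 9.36 and 10.07 in WT hosts. The groups overlapped through WT array 4 alone. The difference for Nfkbie of -0.45 ± 0.16 was not called (adjusted p = 0.25), and without that array it was -0.61 (adjusted p = 0.00873).

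Tnfaip3, whose product A20 takes ubiquitin chains off signalling adaptors, had log2 signals of 11.79, 11.78, 11.57, 11.63 and 11.80 in Myd88-/- hosts, against 12.21, 12.13, 12.12, 11.97 and 12.01 in WT hosts. The groups did not overlap, and the difference was -0.37 ± 0.08 (adjusted p = 0.0402). A second Tnfaip3 probe set differed by -0.72 and did not overlap either.

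Among the subunits, Nfkb2, the precursor of the alternative pathway, had log2 signals of 7.25, 7.22, 7.38, 7.64 and 7.39 in Myd88-/- hosts, against 7.91, 7.84, 7.93, 7.65 and 7.73 in WT hosts. The groups met almost exactly at 7.64 and 7.65, and the difference was -0.44 ± 0.10 (adjusted p = 0.0429). Rel, which encodes c-Rel, had 8.03, 7.77, 7.52, 7.64 and 8.08 in Myd88-/- hosts, against 8.86, 8.49, 8.67, 7.81 and 8.32 in WT hosts. Its difference of -0.62 ± 0.18 was not called (adjusted p = 0.129), and WT array 4 was again the low one: without it the difference was -0.78 (adjusted p = 0.0119). Relb, the partner of processed Nfkb2 protein, ranged from 7.38 to 7.63 in Myd88-/- hosts and from 7.48 to 8.12 in WT hosts, and its difference of -0.33 ± 0.13 was not called (adjusted p = 0.281). Rela, the main activating subunit of the classical pathway, ranged from 8.73 to 9.13 in Myd88-/- hosts and from 9.09 to 9.34 in WT hosts. Its difference of -0.23 ± 0.09 was not called (adjusted p = 0.31).

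The fall of Nfkbiz was called in all 18 alternative analyses, including each that left out 1 array, with differences of -1.81 to -1.58. The other 4 calls were near the threshold. Leaving out 1 array at a time, the Nfkbia call was lost without Myd88-/- array 3 or 5 or WT array 2 or 3 (adjusted p = 0.0826 at most). Bcl3 kept its call only without WT array 4 or 5, Nfkb2 only without Myd88-/- array 4 or WT array 4, and Tnfaip3 only without WT array 4. Without the other arrays the highest adjusted p was 0.11 for Bcl3, 0.136 for Nfkb2 and 0.13 for Tnfaip3.

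**Figure D1:**
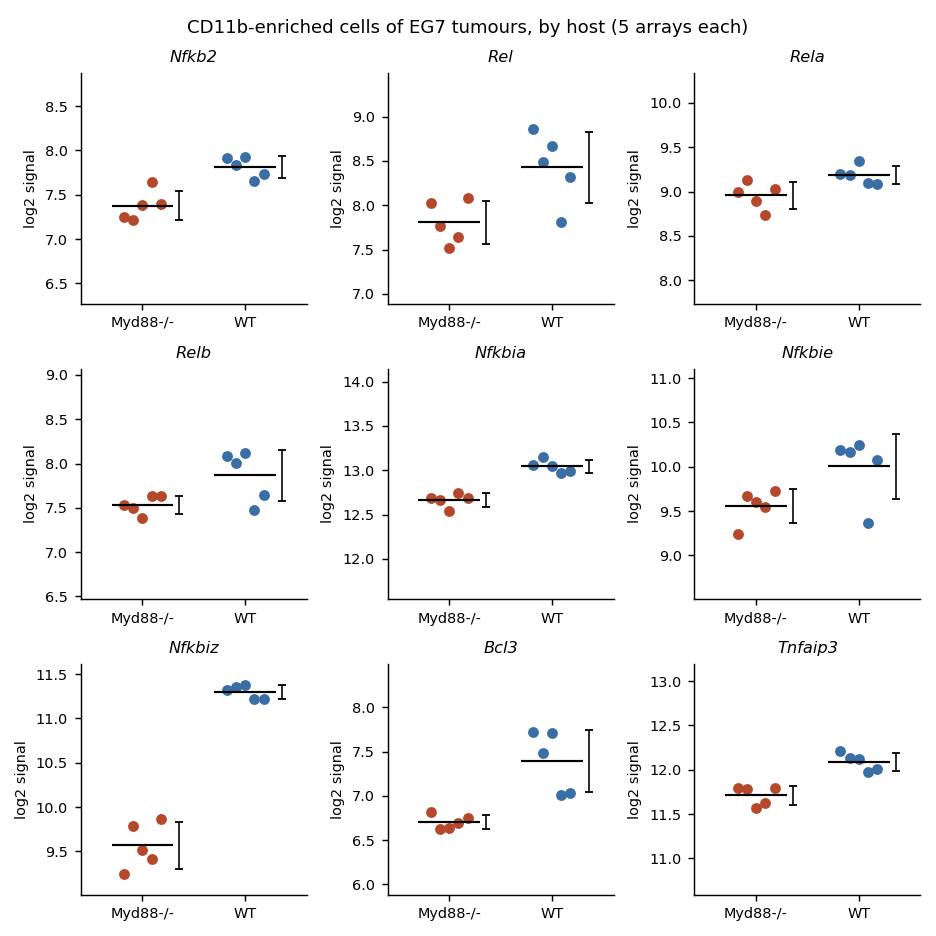
Log2 signal (vertical axis) of the 9 measured genes in bead-enriched cells of EG7 tumours, 5 arrays in Myd88-/- hosts (left, red) and 5 in WT hosts (right, blue); the line is the mean and the bar beside it 1 SD. Nfkbiz shows the widest gap, 9.24 to 9.87 against 11.22 to 11.38, while WT array 4 lies among the Myd88-/- arrays for Nfkbie.

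Genes around this core moved in part with it. Of 20 textbook NF-kB-induced genes, 10 were called lower and 0 higher in Myd88-/- hosts, with a median difference of -0.58. Tnf, the cytokine that binds TNFR1, fell by 1.38 on the log2 scale (SE 0.08, adjusted p = 3.47e-06), and the adhesion molecule Icam1 was at 49.9% of its WT level (adjusted p = 0.000282). Traf1, a signalling adaptor, and Birc3, a ubiquitin ligase of the TNF receptor complex, were also lower, by -0.97 ± 0.11 and -0.86 ± 0.09. Nfkbid, a further nuclear IkB, was lower by -0.86 ± 0.10 (adjusted p = 0.00096), while Nfkbib, which encodes IkB-beta, differed by -0.67 ± 0.16 and was not called (adjusted p = 0.0764). Of 16 measured kinases and adaptors upstream of NF-kB, only Irak3, a brake on Myd88 signalling (-0.95 ± 0.15), and Map3k8, a kinase activated by IKK (-0.59 ± 0.12), were called lower, and the list median was -0.06. Of 9 measured A20 partners and other deubiquitinases, 1 was called: Zc3h12a, an RNase that cuts inflammatory transcripts, was lower by -1.09 ± 0.15 (adjusted p = 0.0018).

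Cell markers moved too in this comparison. Of 6 measured monocyte markers, 3 were called lower, and the mean of the list was 8.96 to 9.17 in Myd88-/- hosts and 9.46 to 9.64 in WT hosts. None of the 11 macrophage or 9 neutrophil markers was called, and the macrophage mean was 10.52 to 10.63 in Myd88-/- hosts and 10.57 to 10.75 in WT hosts. Of 9 genes induced by tissue dissociation, 2 were called lower. The 3′ minus 5′ signal of actin, a sign of RNA integrity, was 0.64 to 0.78 in Myd88-/- hosts and 0.54 to 0.68 in WT hosts. WT arrays 4 and 5 correlated best with Myd88-/- array 3 (r = 0.994 over genes). The part of these in the differences above was not tested, and in a mixed sample fewer cells of a type and less RNA per cell cannot be told apart.

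In the sorted cells, deletion of Myd88 by Tie2-Cre went with lower Nfkbiz, Nfkbia and Tnfaip3, and loss of TNFR1 with no call among the 9 genes. Averaged over both populations, the 8 arrays with Myd88 deleted had Nfkbiz at 44.5%, Nfkbia at 62.1% and Tnfaip3 at 64.9% of the level of the 8 arrays with Myd88 intact. The same contrast for TNFR1 gave 107%, 101% and 107% for these 3 genes. Both contrasts use all 16 arrays, with the double mutant on the mutant side of each. That for TNFR1 thus averages over hosts with Myd88 intact and deleted. In TNFR1-/- against WT hosts, Nfkbiz differed by -0.23 in A and 0.63 in C, and Nfkbia by 0.20 and 0.28. Tnfaip3 differed by 0.46 and 0.19, and none of these was called. In double mutant against Myd88-deleted hosts, Nfkbiz averaged 8.48 against 8.49 in A and 8.80 against 8.80 in C. Nfkbia averaged 10.14 against 10.53 and 10.86 against 10.91, and Tnfaip3 9.50 against 9.38 and 9.47 against 9.88. Of the 16524 genes tested, 2.86% were called in either direction with Myd88 deleted and 1.98% with TNFR1 lost. Called lower were 0.412% with Myd88 deleted and 1.27% with TNFR1 lost.

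The Myd88 signal separated the arrays as labelled, while some arrays were closer to another group than to their own. Myd88 was 7.49 to 8.76 in the 8 arrays with Myd88 deleted and 9.22 to 10.05 in the 8 with it intact. The highest of the deleted arrays was double mutant C array 1, which also correlated best with TNFR1-/- C array 1 (r = 0.985) and not with its own partner (0.966). Double mutant A array 1 correlated best with a C array (0.960), and the 2 WT arrays of population A were the least alike pair (0.931). Tnfrsf1a was lower by -0.44 ± 0.12 with TNFR1 lost (adjusted p = 0.0856), which was not called, and it did not separate the arrays as labelled. In A, double mutant array 2 was at 8.20, between the WT arrays at 8.09 and 8.30. In C, WT array 2 was at 7.81, below TNFR1-/- array 2 at 7.87. The sources used here do not say whether the Tnfrsf1a probe set lies in the deleted part.

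For Nfkbiz in population A, log2 signals were 8.26 and 8.70 in double mutant, 8.33 and 8.65 in Myd88-deleted, 9.51 and 9.64 in TNFR1-/- and 10.05 and 9.56 in WT hosts. In population C they were 9.33 and 8.27 in double mutant, 8.86 and 8.74 in Myd88-deleted, 10.25 and 10.24 in TNFR1-/- and 9.90 and 9.34 in WT hosts. In both populations every array with Myd88 deleted lay below every array with Myd88 intact, though in C only just, at 9.33 in double mutant array 1 against 9.34 in WT array 2.

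For Nfkbia in population A, log2 signals were 9.71 and 10.58 in double mutant, 10.38 and 10.67 in Myd88-deleted, 11.24 and 11.58 in TNFR1-/- and 11.61 and 10.82 in WT hosts. In population C they were 10.89 and 10.82 in double mutant, 10.99 and 10.82 in Myd88-deleted, 11.43 and 11.40 in TNFR1-/- and 11.22 and 11.05 in WT hosts. The arrays separated by Myd88 in each population.

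For Tnfaip3 in population A, log2 signals were 9.49 and 9.51 in double mutant, 9.20 and 9.56 in Myd88-deleted, 10.22 and 10.73 in TNFR1-/- and 10.36 and 9.67 in WT hosts. In population C they were 9.58 and 9.36 in double mutant, 10.19 and 10.23 in TNFR1-/- and 10.17 and 9.87 in WT hosts, and the 2 Myd88-deleted arrays averaged 9.88 with 9.75 in the lower one. The arrays separated by Myd88 in A, while in C the Myd88-deleted arrays overlapped WT.

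**Figure D2:**
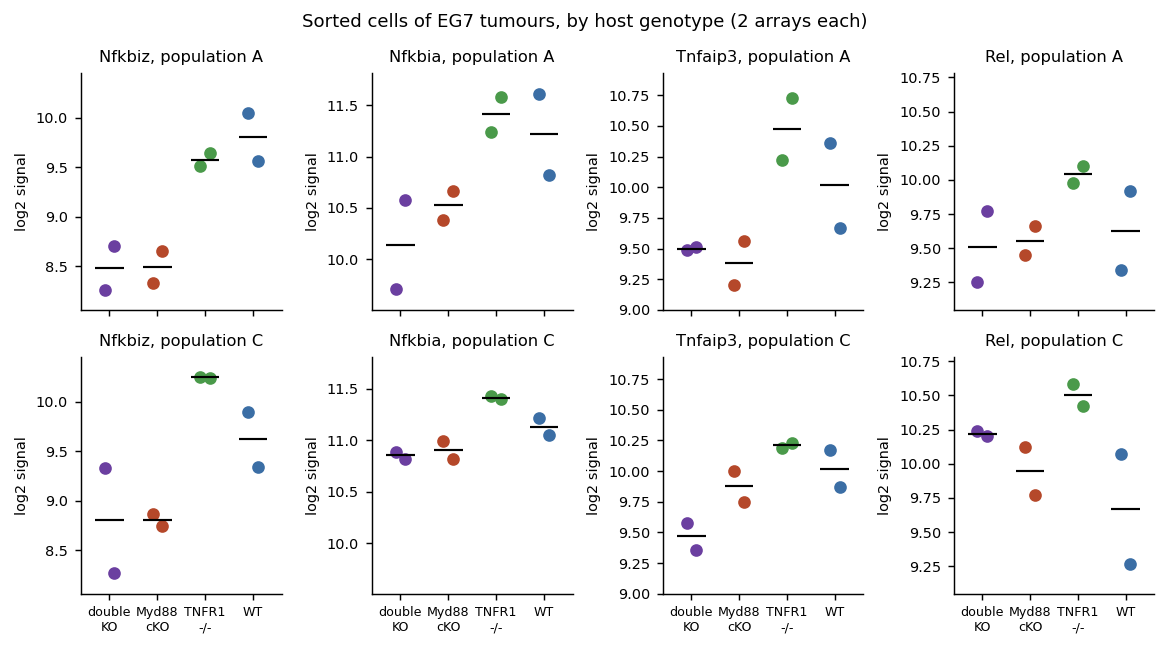
Log2 signal (vertical axis) of Nfkbiz, Nfkbia, Tnfaip3 and Rel in populations A (top) and C (bottom) by host genotype, 2 arrays each, with a line at the mean; the axis range of a gene is the same in A and C. Nfkbiz in double mutant and Myd88-deleted hosts lies at 8.26 to 9.33, against 9.34 to 10.25 in TNFR1-/- and WT hosts.

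Tested within population A, 4 arrays with Myd88 deleted against 4 with it intact, the same 3 genes were called. Nfkbiz differed by -1.21 ± 0.21 (SE, adjusted p = 0.0068), Nfkbia by -0.98 ± 0.19 (adjusted p = 0.0121) and Tnfaip3 by -0.80 ± 0.16 (adjusted p = 0.0144). The other 6 genes were not called, with differences from -0.48 ± 0.22 for Nfkbie to 0.02 ± 0.14 for Rela. The median of the 9 was -0.34, against 0.01 over all genes, and 0.478% of all genes were called lower. The 3 calls held without any 1 of the 16 arrays. With only the 8 arrays of population A in the fit, Nfkbiz alone was called, while Nfkbia (adjusted p = 0.133) and Tnfaip3 (adjusted p = 0.121) were not.

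Within population C no gene of the 9 was called, on a background of 0.0121% of all genes called lower. Nfkbiz differed by -1.13 ± 0.21, close to its value in A, with an adjusted p of 0.145. Without double mutant C array 1, the one with the highest Myd88, Nfkbiz differed by -1.40 and was called (adjusted p = 0.0106). Tnfaip3 differed by -0.44 ± 0.16 (adjusted p = 0.918) and Nfkbia by -0.39 ± 0.19 (adjusted p = 0.998), and 2 of the 9 had an unadjusted p under 0.05. The difference of the Myd88 effect between A and C was tested directly and called for none of the 9, nor for any other gene (0% of all genes, 1532 at an unadjusted p under 0.05). It was -0.07 ± 0.29 for Nfkbiz, -0.36 ± 0.23 for Tnfaip3 and -0.58 ± 0.27 for Nfkbia (adjusted p = 0.538), so the intervals were wide and a population difference for Nfkbia was not resolved.

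Over both populations the Myd88 differences were -1.17 ± 0.15 for Nfkbiz (adjusted p = 0.00225), -0.62 ± 0.11 for Tnfaip3 (adjusted p = 0.0137) and -0.69 ± 0.14 for Nfkbia (adjusted p = 0.0191). Nfkbiz and Tnfaip3 stayed called without each array in turn. Nfkbia lost its call without double mutant C array 2, Myd88-deleted C array 2 or TNFR1-/- C array 2 (adjusted p = 0.0516 to 0.0583). Nfkbie, at -0.39 ± 0.16, was the nearest of the uncalled genes (adjusted p = 0.208). Nfkb2 differed by -0.27 ± 0.13, Bcl3 by -0.26 ± 0.16, Rel by -0.15 ± 0.13, Relb by -0.11 ± 0.07 and Rela by -0.07 ± 0.10, none called. Relb signals in all sorted arrays were not far above the array medians of 5.31 to 5.50. They were 5.85 to 6.42 with Myd88 deleted and 5.99 to 6.37 with it intact.

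With TNFR1 lost, differences over both populations lay between -0.08 and 0.37, with a median of 0.01 against -0.01 over all genes. The 95% interval was -0.22 to 0.41 for Nfkbiz, -0.28 to 0.30 for Nfkbia and -0.15 to 0.34 for Tnfaip3. Rel was the only one of the 9 with an unadjusted p under 0.05, at 0.37 ± 0.13 (adjusted p = 0.206), and its level was higher with TNFR1 lost. In population C, Rel had log2 signals of 10.24 and 10.20 in double mutant and 10.58 and 10.42 in TNFR1-/- hosts, against 10.12 and 9.77 in Myd88-deleted and 10.07 and 9.27 in WT hosts. The arrays without TNFR1 all lay above those with it, yet the difference of 0.55 ± 0.18 was not called (adjusted p = 0.302, with 1.09% of all genes called in C). In population A, Rel differed by 0.18 ± 0.18, no gene of the 9 had an unadjusted p under 0.05, and 0.182% of all genes were called. The TNFR1 effect did not differ in a called way between A and C for any of the 9, with differences of -0.43 to 0.40 (0.103% of all genes called).

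The 2 losses were compared with each other directly, 4 Myd88-deleted arrays against 4 TNFR1-/- arrays over both populations. Nfkbiz was lower in Myd88-deleted hosts by -1.26 ± 0.21 (adjusted p = 0.0039) and Tnfaip3 by -0.71 ± 0.16 (adjusted p = 0.036), on a background of 0.315% of all genes called lower. Nfkbia was lower by -0.70 ± 0.19 with no overlap of the arrays, and was not called (adjusted p = 0.0913). The gaps for Tnfaip3 and Nfkbia hold more than a fall from WT with Myd88 deleted. TNFR1-/- hosts averaged above WT for both genes, by 0.46 in A and 0.19 in C for Tnfaip3 and 0.20 and 0.28 for Nfkbia. Myd88-deleted hosts differed from WT by -0.64 and -0.14 for Tnfaip3 and -0.69 and -0.23 for Nfkbia. None of these was called. Rel differed by -0.52 ± 0.18 (adjusted p = 0.231), and the other 5 genes differed by -0.02 to -0.40. Without an A array of double mutant or WT hosts, Nfkbia was called (adjusted p = 0.0321 to 0.0347). Nfkbiz kept its call in all 24 alternatives, whereas Tnfaip3 lost it (adjusted p = 0.0532 to 0.163) without any 1 of the Myd88-deleted arrays, the C double mutant arrays, the C TNFR1-/- arrays or TNFR1-/- A array 2. In the same comparison 5 of 11 macrophage markers were higher, with a list mean of 9.58 to 10.58 in Myd88-deleted and 8.20 to 10.42 in TNFR1-/- hosts. Of 6 monocyte markers 2 were lower and 1 higher, with a list mean of 8.22 to 8.99 in Myd88-deleted and 8.48 to 9.04 in TNFR1-/- hosts. Further, 2 of 6 endothelial and 1 each of 9 neutrophil, 7 dendritic cell and 7 fibroblast markers were higher, and 1 of 10 dissociation genes was lower. Their part was not tested.

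**Figure D3:**
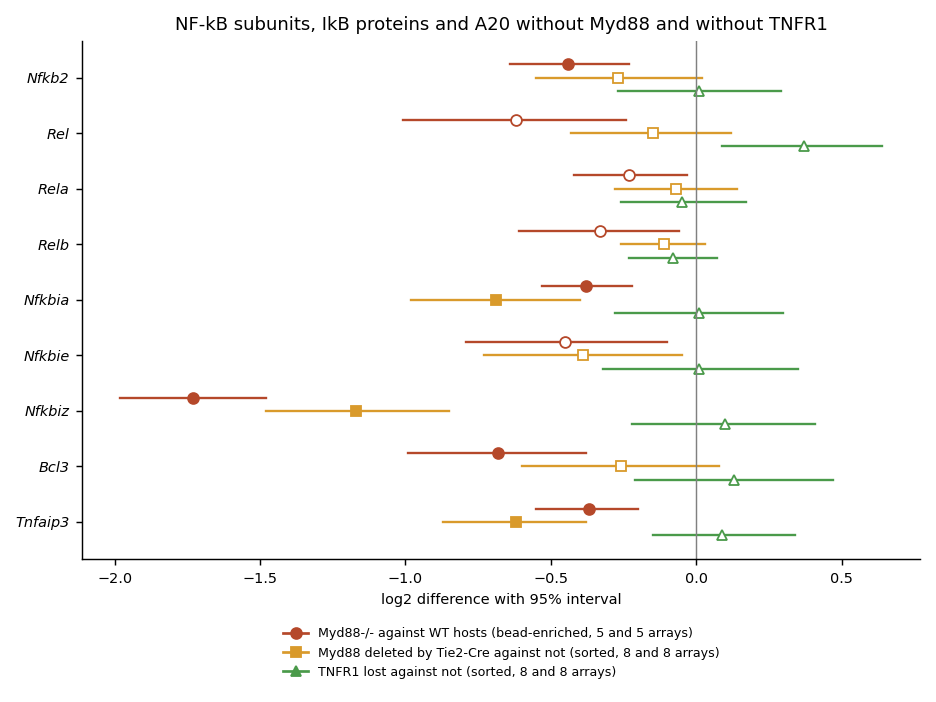
Log2 difference (horizontal axis, with its 95% interval) of the 9 genes without Myd88 in bead-enriched cells (circles), with Myd88 deleted in sorted cells (squares) and with TNFR1 lost in sorted cells (triangles); filled symbols are called. Nfkbiz, Nfkbia and Tnfaip3 are filled in both Myd88 comparisons, and no triangle is filled.

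The double mutant was close to the Myd88-deleted hosts for Nfkbiz. Against WT over both populations, the double mutant differed by -1.07 ± 0.21 for Nfkbiz (adjusted p = 0.0222), -0.67 ± 0.19 for Nfkbia (adjusted p = 0.0723) and -0.53 ± 0.16 for Tnfaip3 (adjusted p = 0.0861). Only Nfkbiz was called, and 0.702% of all genes were called lower. That call was lost without double mutant A array 1, double mutant C array 2 or WT C array 2 (adjusted p = 0.0568 to 0.0873). Nfkbia was called without double mutant A array 2 (adjusted p = 0.0151) or WT A array 2 (adjusted p = 0.0198), and Tnfaip3 without the last (adjusted p = 0.0215). The departure of the double mutant from the sum of the 2 single effects was -0.20 ± 0.29 for Nfkbiz, -0.45 ± 0.27 for Nfkbia and -0.47 ± 0.23 for Tnfaip3. None of the 9 was called for it, none had an unadjusted p under 0.05, and 0.0605% of all genes were called. In the double mutant against WT, 3 of 8 T lymphocyte and EG7 markers were higher, with a list mean of 6.37 to 7.49 in double mutant and 6.14 to 6.72 in WT hosts. In addition 1 of 11 macrophage and 1 of 7 dendritic cell markers were higher, and of 9 neutrophil markers 1 was higher and 1 lower. Their part was not tested.

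Single genotypes against WT, 2 arrays against 2 and sharing the WT arrays, gave 3 calls. In population A, Nfkbiz was lower in Myd88-deleted hosts by -1.31 ± 0.29 (adjusted p = 0.0321), on a background of 0.708% of genes called lower. In A of double mutant hosts, Nfkbiz was lower by -1.33 ± 0.29 (adjusted p = 0.0272) and Nfkbia by -1.07 ± 0.27 (adjusted p = 0.0378), with 1.42% called lower. All 3 calls were lost without WT A array 1, at adjusted p of 0.0693, 0.0538 and 0.116. The first was lost also without any 1 Myd88-deleted array or any 1 C array of TNFR1-/- hosts (adjusted p = 0.158 at most), and the second without double mutant A array 1 (adjusted p = 0.208). Nfkbia lost its call as well without double mutant A array 1 (adjusted p = 0.324) or any 1 C array of the 3 mutant genotypes. Leaving out the other WT array of A, array 2, added calls. Without it Nfkbia (-1.08, adjusted p = 0.0368) and Tnfaip3 (-0.98, adjusted p = 0.0268) were called lower in A of Myd88-deleted hosts, and Tnfaip3 (-0.86, adjusted p = 0.0408) in A of double mutant hosts. After quantile normalization Tnfaip3 was called in the same pair of comparisons (-0.93 and -0.78). No gene of the 9 was called in A of TNFR1-/- hosts (0.654% of all genes called), or in C of double mutant (0.309%), Myd88-deleted (0.0121%) or TNFR1-/- hosts (0.0726%). In C of TNFR1-/- hosts Nfkbiz differed by 0.63 ± 0.29 (adjusted p = 0.997). Markers also differed in A against WT: 5 of 11 macrophage markers were called higher in Myd88-deleted hosts, and 4 of 8 T lymphocyte and EG7 markers were higher in double mutant hosts. Their part was not tested.

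Other genes of the pathway followed Myd88 in few cases in the sorted cells. In population A, Nfkbid was lower with Myd88 deleted by -0.78 ± 0.19 (adjusted p = 0.0337), and of 20 NF-kB-induced genes 1 was called, the cytokine Il6 at -0.69 ± 0.18. Il6 was low there, averaging 4.71 with Myd88 deleted and 5.41 with it intact, beside A array medians of 5.37 to 5.50. Over both populations 3 of the 20 were called lower and 0 higher: Tnf by -0.83 ± 0.19, Il6 by -0.61 ± 0.13 and the prostaglandin synthase Ptgs2 by -0.40 ± 0.10. In these contrasts of all arrays with Myd88 deleted against all with it intact, none of the 16 upstream kinases and adaptors and none of the 10 A20 partners and deubiquitinases was called. Against WT alone in A, further genes were called. The deubiquitinase Cyld was higher in double mutant (1.28 ± 0.24, adjusted p = 0.0175) and in Myd88-deleted hosts (1.23 ± 0.24, adjusted p = 0.0212), as was the macrophage growth factor Csf1 (1.22 ± 0.30 and 1.27 ± 0.30). Of all genes, 4.33% were called higher in A of double mutant and 2.47% in A of Myd88-deleted hosts. In A of double mutant hosts Tnf (-1.89 ± 0.38) and the stress response gene Gadd45b (-1.04 ± 0.26) were lower than in WT.

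With TNFR1 lost, genes of the pathway outside the 9 did change. Sod2, a mitochondrial antioxidant enzyme, fell by 1.31 on the log2 scale (SE 0.16, adjusted p = 0.00112), and the chemokine Ccl5 fell by 0.89 (SE 0.17, adjusted p = 0.014). Il6 rose by 0.61 ± 0.13 (adjusted p = 0.0227), against its fall with Myd88 deleted. Its level was low, averaging 5.48 with TNFR1 lost and 4.87 with it intact, beside array medians of 5.31 to 5.50 over all probe sets. Irak3 was lower by -0.52 ± 0.12 and Tnip1, an A20-binding protein, by -0.55 ± 0.13. Map3k14, the kinase of the alternative pathway, was higher by 0.36 ± 0.09, and Cyld, a deubiquitinase of the same adaptors as A20, by 0.52 ± 0.12. Cyld averaged 7.59 in double mutant, 7.54 in Myd88-deleted and 8.04 in TNFR1-/- hosts in A, against 6.31 in WT hosts. It was called higher in each mutant genotype there (1.74 ± 0.24 in TNFR1-/- hosts), so WT was the low group in A, while in C the 4 genotypes averaged 6.58 to 6.86. In A of TNFR1-/- hosts Sod2 (-1.94 ± 0.33) and Ccl5 (-1.91 ± 0.34) were lower than in WT, as was Sod2 in C of double mutant hosts (-1.79 ± 0.33). Cell markers also differed in A of TNFR1-/- against WT hosts. There 4 of 7 fibroblast, 2 of 8 T lymphocyte and EG7 and 1 of 6 endothelial markers were called lower. Of 9 neutrophil markers 1 was higher and 2 were lower. Sod2 (1.22 ± 0.23, adjusted p = 0.0119) and Il6 (-1.22 ± 0.18, adjusted p = 0.0018) also differed between the 2 losses directly, Sod2 being higher and Il6 lower in Myd88-deleted than in TNFR1-/- hosts. Among cell markers over both populations, 2 of 11 macrophage and 2 of 6 endothelial markers were lower with TNFR1 lost. Of 7 dendritic cell markers 2 were higher and 1 lower, of 9 neutrophil markers 1 was higher and 1 lower, and 1 of 6 natural killer cell markers and 1 of 10 dissociation genes were higher. In C, where Rel was higher without a call, 2 of 7 dendritic cell markers were called higher, with a list mean of 7.33 to 7.56 with TNFR1 lost against 6.89 to 7.11 with it intact, as were 1 of 3 B lymphocyte and 1 of 6 natural killer cell markers. The part of these markers was not tested.

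Markers of cell identity moved with Myd88 in population A. Of 11 macrophage markers 5 were called higher with Myd88 deleted, with a list mean of 8.96 to 10.05 against 8.20 to 8.92 with Myd88 intact. Of 8 measured T lymphocyte and EG7 markers 4 were called higher, with a list mean of 6.38 to 7.49 against 5.99 to 6.72, and 2 of 7 fibroblast markers, 1 of 6 endothelial and 1 of 7 dendritic cell markers were higher. In population C no macrophage or T lymphocyte marker was called with Myd88 deleted, and 1 of 6 monocyte markers was higher. Only 0.0182% of all genes were called in C in either direction, so an absence of marker calls there says little. Over both populations 5 of 11 macrophage and 3 of 8 T lymphocyte and EG7 markers were higher, 1 of 6 monocyte markers was higher and 2 were lower, 1 each of 7 dendritic cell, 7 fibroblast and 6 endothelial markers were higher, and 1 of 10 dissociation genes was lower. Nfkbiz differed by -1.13 in C and -1.21 in A. The part of these markers in the differences of the 9 genes was not tested.

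Between the populations, over all 4 genotypes, 3 of the 9 were lower in A than in C: Nfkbie by -0.57 ± 0.16 (adjusted p = 0.0128), Rel by -0.40 ± 0.13 (adjusted p = 0.0289) and Relb by -0.25 ± 0.07 (adjusted p = 0.0111), 8 arrays against 8. The background was high, with 21.3% of all genes called lower in A, so a count of 3 of 9 says little about these genes in particular. Nfkbia (-0.25 ± 0.14), Nfkbiz (-0.28 ± 0.15) and Tnfaip3 (-0.05 ± 0.11) were not called. Without double mutant A array 2 or WT A array 1, Nfkb2 (-0.42 and -0.41, adjusted p = 0.0189 and 0.0182) and Nfkbia (-0.36 and -0.35, adjusted p = 0.0315 and 0.0331) were called too, and without double mutant C array 2 so was Nfkbiz (-0.41, adjusted p = 0.02). Rel lost its call without array 1 of any of the 8 groups (adjusted p = 0.052 to 0.0775). After quantile normalization only Relb was called, Nfkbie having an adjusted p of 0.0791 and Rel 0.403.

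Of the lists around the pathway, set beside 21.3% of all genes called lower and 11.1% called higher in A, several members were called. Of 20 NF-kB-induced genes 13 were lower and 1 higher in A, led by the chemokines Cxcl1 (-1.91 ± 0.12) and Ccl5 (-1.36 ± 0.17). Among A20 partners, Tnip3 was lower in A by -1.38 ± 0.16 and Tnip2 by -0.92 ± 0.13, while Cyld was higher by 0.69 ± 0.12. Of 16 upstream kinases and adaptors 7 were lower and 1 higher, including the ubiquitin ligases Traf5 (-0.50 ± 0.10) and Traf6 (-0.38 ± 0.08), and the IKK subunit Ikbkb was the one that was higher (0.35 ± 0.09). Markers of many cell types differed as well. Lower in A were 9 of 11 macrophage, 3 of 7 dendritic cell and 1 of 3 B lymphocyte markers and 3 of 10 dissociation genes. Higher in A were 7 of 9 neutrophil markers, although A was sorted as Ly6G-, 5 of 8 T lymphocyte and EG7, 5 of 7 fibroblast and 3 of 6 endothelial markers. Of 6 natural killer cell markers 3 were higher and 1 lower, and of 6 monocyte markers 2 were higher and 1 lower. Their part in the differences of the 9 genes was not tested.

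Between the tumour models no gene of the 9 was called, although 14.7% of the 12577 genes tested were called in either direction, and none had an unadjusted p under 0.05. The median difference was -0.02, against -0.01 over all genes. Nfkbiz, Nfkbia and Tnfaip3, which were called in both Myd88 comparisons, differed by at most 0.13 between the models. Nfkbiz had log2 signals of 12.48, 12.48 and 12.21 in neuroblastoma, against 12.09, 12.38 and 12.32 in EG7 tumours (0.13 ± 0.16, SE, n = 3 each). Nfkbia had 13.29, 13.34 and 13.13 in neuroblastoma, against 13.19, 13.28 and 13.24 in EG7 tumours (0.02 ± 0.14). For both genes the arrays of the models were interleaved, although the other 2 Nfkbiz probe sets differed by 0.34, with no overlap, and by 0.56. Tnfaip3 had 12.68, 12.79 and 12.34 in neuroblastoma, against 12.48, 12.76 and 12.64 in EG7 tumours (-0.02 ± 0.18), and Rela differed by 0.06 ± 0.26.

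For Rel, Nfkbie, Relb and Nfkb2 the neuroblastoma arrays spread widely, with array 2 the highest each time. Rel had log2 signals of 6.70, 9.15 and 8.37 in neuroblastoma, against 8.32, 9.12 and 8.84 in EG7 tumours, and its difference of -0.69 ± 0.60 had an interval of -2.12 to 0.75. Nfkbie had 9.02, 10.84 and 9.73 in neuroblastoma, against 10.36, 10.91 and 10.35 in EG7 tumours (-0.68 ± 0.45). Relb had 7.08, 8.44 and 7.49 in neuroblastoma, against 8.37, 8.68 and 8.14 in EG7 tumours (-0.73 ± 0.36). In each of these, neuroblastoma array 2 reached the level of the EG7 arrays and arrays 1 and 3 did not, except Rel array 3. Nfkb2 behaved alike, at 6.58, 8.05 and 7.18 in neuroblastoma against 7.90, 8.45 and 7.59 in EG7 tumours (-0.71 ± 0.40). Without neuroblastoma array 2, Relb (-1.11, adjusted p = 0.0237) and Nfkbie (-1.16, adjusted p = 0.0418) were called. Bcl3 was the one gene with a positive difference of some size, 0.45 ± 0.36, and was not called (adjusted p = 0.455).

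**Figure D4:**
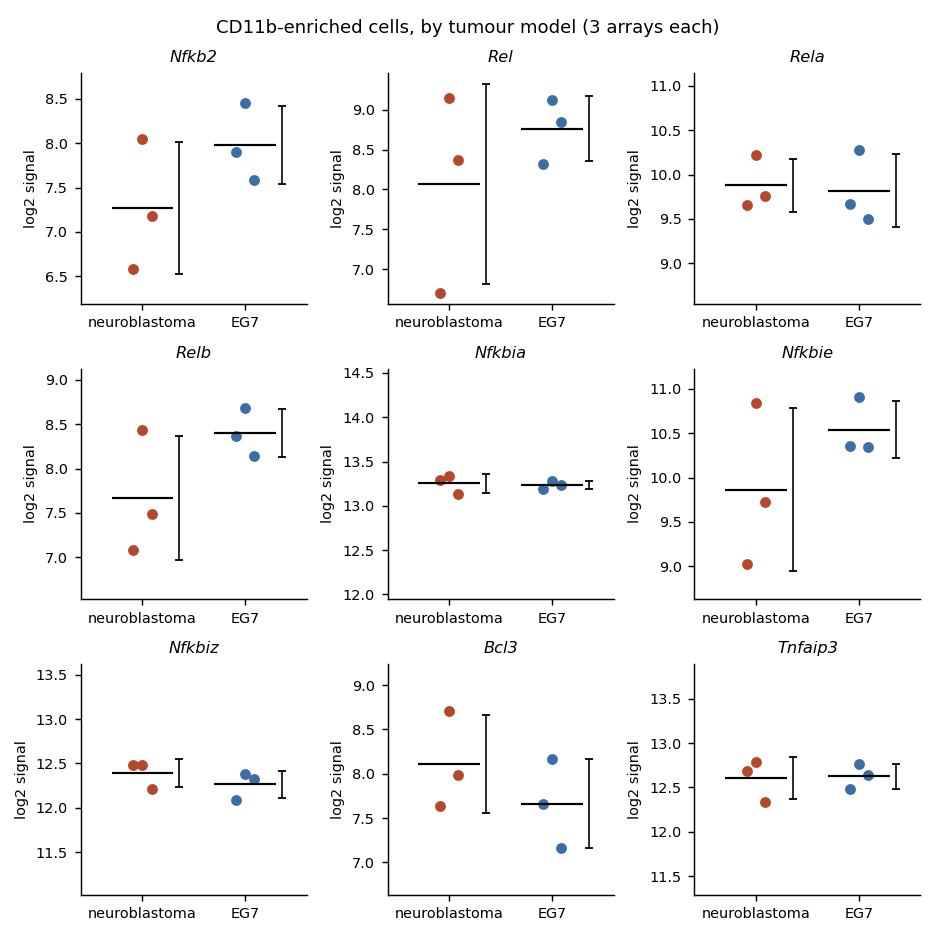
Log2 signal (vertical axis) of the 9 measured genes in bead-enriched cells, 3 arrays of neuroblastoma (left, red) and 3 of EG7 tumours (right, blue); the line is the mean and the bar beside it 1 SD. Nfkbia, Nfkbiz and Tnfaip3 overlap closely, while Rel, Relb, Nfkbie and Nfkb2 spread over more than 1 log2 unit in neuroblastoma.

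Of the pathway lists, 1 of 16 upstream kinases and adaptors was lower in neuroblastoma (Map3k7, the kinase that activates IKK, -0.79 ± 0.20), Nfkbid was lower (-0.75 ± 0.14), and 1 of 20 NF-kB-induced genes was higher, the adhesion molecule Vcam1 (2.07 ± 0.35). The bead-enriched samples differed in the cells they held. All 9 measured neuron and neuroblastoma markers were higher in neuroblastoma, with a list mean of 8.43 to 9.44 against 3.66 to 3.74 in EG7 tumours, and 7 of 9 T lymphocyte and EG7 markers were lower, at 4.30 to 5.55 against 7.89 to 8.24. In addition 5 of 7 endothelial and 3 of 7 fibroblast markers were higher in neuroblastoma. Their part in the levels of the 9 genes was not tested.

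The genes most like Nfkbiz, Nfkbia and Tnfaip3 were found by Pearson's r over the arrays of an experiment, which reflects the groups as well as variation within them. Over the 16 sorted arrays Nfkbiz was most like Slfn2 (r = 0.93) and Myd88 (0.92), the gene that was deleted in 8 of these arrays, followed by Nfkbib (0.83). Nfkbia was most like Zc3h12a (0.88), Nfkbid (0.87) and Slfn2 (0.84), and Tnfaip3 was most like Nfkbid (0.95), Ccrl2 (0.86) and H2-Q5 (0.85). Over the 10 arrays of the Myd88-/- experiment Nfkbiz was most like Spata13 and Dusp2 (0.99 each) and Traf1 (0.98). Nfkbia was most like Casp4 and Cd83 (0.98 each) and Ly6c1 (0.97), and Tnfaip3 was most like Cxcl5, Nlrp3 and Ly6c1 (0.97 each). Among the 9 genes themselves, r in that experiment ran from 0.48 (Nfkb2 and Rela) to 0.94 (Nfkbia and Tnfaip3). Over the sorted arrays it ran from 0.06 (Relb and Bcl3) to 0.93 (Nfkb2 and Nfkbie), with 0.83 for Nfkbia with either Nfkbiz or Tnfaip3.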

How the data were processed

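For each of 32 Affymetrix arrays the authors deposited log2 signals of its probe sets. The submitters' processing notes name RMA and version 1.1 of Affymetrix Expression Console. RMA subtracts background, normalizes arrays to a common distribution and summarises probes, which compresses large differences. The sources used here do not say which arrays shared a normalization, and median signals differed between the tumour model and Myd88-/- experiments, so tests stay within an experiment. A probe set was used where the platform annotation gave it 1 symbol (28898 of 45141 on HT_MG-430_PM, 23521 of 41345 on Mouse Gene 2.0 ST, several symbols for 551 and 1814, none for 15692 and 16010). Symbols matched RefSeq for 28689 and 23328 of these, and the highest-mean probe set stood for a gene.

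Genes were kept if they exceeded an array's 40th percentile in a number of arrays equal to the smallest group or more. They were tested with limma 3.58.1 (lmFit and eBayes, R 4.3.3), with p-values adjusted by Benjamini-Hochberg over all genes tested. Calls required an adjusted p under 0.05. The sorted arrays were fitted as 8 groups of 2 with one shared spread, and the other experiments as 2 groups each. The test was checked on simulated data. Of changes of 1 log2 unit, 35% were recovered for neuroblastoma against EG7. For Myd88-/- against WT hosts 94% were recovered, and for Myd88 deletion in A 90%. Of the genes called, 3.42%, 4.43% and 6.86% were false in these 3 comparisons. The number of arrays limits the precision.

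Samples were grouped by their labels, and no series column was left unmapped (0). The 10 genes and the gene lists were chosen with earlier results of these data known. Named were all 10 genes, up to 4 called genes of smallest adjusted p per pathway list and comparison, Myd88 and Tnfrsf1a, and the 3 genes of highest r with Nfkbiz, Nfkbia and Tnfaip3. Alternatives varied the filter, normalization, probe set rule, array weights, prior, replicate block and arrays included. A glioma model named in the study design is not analysed here.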

Additional observations from a re-analysis of the deposited data

Results flagged for a closer look

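In bead-enriched cells of EG7 tumours in WT hosts, Nfkbie was at 9.36 on the log2 scale in array 4, far below the other 4 arrays (10.07 to 10.24). The gap to the next array was 0.81 of the range of the 5 arrays. WT array 4 was also the lowest of the 5 for Nfkb2, Rel, Relb, Nfkbia, Bcl3 and Tnfaip3. It shared the lowest value for Nfkbiz and was not the lowest for Rela. The cause was not tested.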

How the results depend on the processing

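Counts below are of the 9 measured genes. The fall of Nfkbiz was called under all alternatives for Myd88-/- hosts, for Myd88 deletion in A and over both populations, and for Myd88-deleted against TNFR1-/- hosts. The other counts moved, and the cause was not tested. For Myd88-/- against WT hosts 5 genes were called, 1 with arrays centred on the median, 1 with the replicate block and 1 to 7 when single arrays were left out. Whether equal replicate numbers mark arrays that belong together is not stated in the labels. Deviations of same-numbered arrays correlated at -0.05 to 0.22, -0.25 to 0.23 and -0.50 to 0.37 in the 3 experiments. In the sorted cells these pairs ran across all groups, so they do not single out A and C of one genotype. For Rel, array 1 lay below array 2 in every A group and above it in every C group. The block changed no count of these genes in the other comparisons. For Myd88 deletion the count was 1 in A and 1 in C with only the arrays of that population in the fit, against 3 and 0. It was 1 in C with array weights and 0 to 1 without single arrays. For Myd88-deleted against TNFR1-/- hosts it was 1 with a trended robust prior and 1 to 3 without single arrays, against 2. For the double mutant against WT it was 0 with array weights, 3 after quantile normalization and 0 to 3 without single arrays, against 1. Over the single genotypes it was 0, 5 and 0 to 6 in the same settings, against 3. For A against C it was 1 after quantile normalization and 2 to 5 without single arrays, against 3. For neuroblastoma against EG7 it was 0 to 2 without single arrays. Among differences that were called or larger than their SE, directions turned for Rela in A against C (0.10 after quantile normalization) and, with single arrays left out, for Nfkb2 in A of double mutant hosts (-0.68 to 0.06), Nfkbie there (-0.99 to 0.02), Tnfrsf1a there (-0.50 to 0.01) and Rel in C of Myd88-deleted hosts (-0.12 to 0.68). Calls over all genes also moved by more than 1.5 times, for instance 772 genes for Myd88 deletion in A, against 37 at the lowest and 2359 without WT A array 1. By that measure 6 of 6470 single-gene values under alternatives turned direction, 382 lost and 34 gained a call. Smaller differences crossed 0 more often: of 4266 values of the 9 genes, 175 had the other sign, in 66 of 180 differences, but none of the 456 values of called differences did. The deposited values carry no detection calls, so signal over background was not assessed.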
